A study of Homo sapiens with 2 samples.

Results

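The sestrins SESN1, SESN2 and SESN3, the FOXO transcription factors FOXO1, FOXO3 and FOXO4, and DDIT4 are stress-responsive genes around the PI3K/AKT/mTOR axis, and their expression was compared between PC3 and PC3CR cells. These 7 genes, of 19775 genes measured, were taken by name. The naming rule uses no threshold on expression, although the list was drawn up with earlier results of these data known. Their members were the 19 probe sets, of 41091 with exactly 1 gene symbol in the platform annotation, that carried one of these symbols or an older alias. PC3 is a human prostate cancer cell line that grows without androgen. PC3CR is its resistant subline, which was passaged in medium with cabazitaxel (CBZ), a taxane that stabilises microtubules, for 18 months and was then examined after 3 months without CBZ. Both were kept in RPMI-1640 with fetal bovine serum. Total RNA of each was hybridised to 1 array, so the series holds 2 arrays, no difference has a replicate check and no test was possible. With 1 array per cell line, a difference from PC3 cannot be told apart from a difference between cultures or arrays. PC3CR is also a single resistant subline, so a difference tied to resistance cannot be told apart from other changes of the subline over its passage. As the RNA came from bulk cultures, fewer cells with a transcript and less of it per cell cannot be told apart. The cell line field of both samples reads PC3, and the titles were used to tell them apart.

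Sestrins are intracellular proteins that limit growth under stress. They bind the GATOR2 complex and thereby restrain mTORC1, the kinase complex that drives protein synthesis, and they also take part in AMPK activation and in the control of reactive oxygen species (ROS). FOXO proteins are forkhead transcription factors that AKT phosphorylates and keeps out of the nucleus, and they induce genes of cell cycle arrest, apoptosis and antioxidant defence. SESN3 is among the known FOXO targets, SESN1 is best known as a p53 target, SESN2 responds to amino acid shortage and endoplasmic reticulum stress through ATF4, and DDIT4 (REDD1) is induced by hypoxia, glucocorticoids and energy stress and acts through the TSC complex on mTORC1. The introduction of the study links SESN3 to CBZ resistance through ROS, which is the question behind this comparison.

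Promoters of 4 members are shown here because they frame the values that follow. SESN3 and SESN2 were the members past 2-fold, in opposite directions, and the windows of DDIT4 and FOXO4 held a motif of a stress factor or of the FOXO family. Some windows of SESN1 and FOXO3, which have several annotated starts, also held a motif and are not shown. Each window runs 5′ to 3′ on the strand of the gene, from 250 bases before the annotated start to 50 bases after it, and comes from RefSeq on GRCh38.p14. The motifs searched on both strands were the FOXO element GTAAACA, the core of the hypoxia response element ACGTG, the antioxidant response element TGACNNNGC and the ATF4 composite element TGATGNAA, and capitals mark a match to one of them.
SESN3, chr11:95232426-95232725, minus strand: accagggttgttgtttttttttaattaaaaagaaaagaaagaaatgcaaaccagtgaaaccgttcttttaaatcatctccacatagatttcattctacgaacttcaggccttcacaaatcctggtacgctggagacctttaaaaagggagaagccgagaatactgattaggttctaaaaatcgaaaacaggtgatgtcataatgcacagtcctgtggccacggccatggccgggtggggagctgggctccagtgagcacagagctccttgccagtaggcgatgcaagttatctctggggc
SESN2, chr1:28259268-28259567, plus strand: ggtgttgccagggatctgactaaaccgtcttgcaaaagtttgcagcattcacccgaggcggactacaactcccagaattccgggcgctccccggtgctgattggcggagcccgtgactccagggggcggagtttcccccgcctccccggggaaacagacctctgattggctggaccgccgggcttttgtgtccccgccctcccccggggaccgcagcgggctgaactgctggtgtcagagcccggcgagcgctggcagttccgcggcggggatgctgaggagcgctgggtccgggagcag
DDIT4, chr10:72273674-72273973, plus strand: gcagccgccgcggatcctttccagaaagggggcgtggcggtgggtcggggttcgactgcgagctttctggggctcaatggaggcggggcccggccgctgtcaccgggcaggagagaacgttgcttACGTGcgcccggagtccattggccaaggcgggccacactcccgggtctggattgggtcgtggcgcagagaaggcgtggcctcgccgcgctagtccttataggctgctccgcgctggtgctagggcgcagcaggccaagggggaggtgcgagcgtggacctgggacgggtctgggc
FOXO4, chrX:71095601-71095900, plus strand: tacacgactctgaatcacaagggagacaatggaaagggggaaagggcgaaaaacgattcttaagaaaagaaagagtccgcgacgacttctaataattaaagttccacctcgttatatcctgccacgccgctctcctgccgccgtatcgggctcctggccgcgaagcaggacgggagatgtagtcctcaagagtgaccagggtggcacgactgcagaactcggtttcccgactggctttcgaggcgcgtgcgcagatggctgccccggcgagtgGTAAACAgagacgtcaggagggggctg

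The windows of SESN3 and SESN2 held none of the 4 motifs. Of all 35116 promoter windows of this length, 3.42% held the FOXO element, 21.4% the hypoxia response element, 13.3% the antioxidant response element and 3.62% the ATF4 composite element. In DDIT4 the hypoxia response element began 125 bases before the start, and in FOXO4 the FOXO element began at base 24 after it. All 7 members had at least 1 window, 12 in all, since SESN1 had 3 and FOXO3 had 4 annotated starts. One window of SESN1 and one of FOXO3 held the antioxidant response element, and 2 of FOXO3, which overlap each other, held the hypoxia response element. The SESN3 window had a GC content of 45.0%, the lowest of the 12, against 67.0% for SESN2 and up to 78.3% among those of FOXO3. A match to such letters describes the window and does not show that a factor binds there.

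The deposited values were log2 values from the robust multichip average (RMA), 1 per probe set, with a median over probe sets of 4.81 on both arrays. Differences are taken below only between the arrays for the same probe set, because probe sets differ in how strongly they bind. The place of a value on its array describes the signal of that probe set and does not rank genes by abundance. The epithelial markers KRT8, KRT18, EPCAM, CDH1 and KRT19 all lay between 8.75 and 11.69 in PC3 and between 8.03 and 12.36 in PC3CR, with EPCAM differing by -2.49 and KRT19 by -3.28. Of 3 measured luminal prostate markers, KLK3 (8.04 and 8.08) and TMPRSS2 (6.23 and 5.78) lay above the array median on both arrays and KLK2 (4.23 and 4.26) below it. Of 10 measured markers of leukocytes, endothelium and fibroblasts, 4 lay below the array median on both arrays, namely PTPRC, VWF, CDH5 and COL1A2. The 10 lay between 3.03 and 8.69 in PC3 and between 2.95 and 6.56 in PC3CR. That median is over all probe sets. Over genes read by their leading probe set, as the markers were, the median was 5.93 in PC3 and 6.05 in PC3CR. CD3E, CD14 and PDGFRB also lay below this gene median on both arrays, whereas PECAM1, COL1A1 and DCN did not. TMPRSS2 lay below it in PC3CR only. Among the leukocyte markers PTPRC read 3.03 and 2.95, CD3E 5.74 and 5.46 and CD14 4.66 and 5.11, and COL1A1, at -2.12, was the only one of the 10 to differ by 2-fold or more. Whether these differences in lineage markers bear on the values of the sestrins and FOXO factors was not tested.

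SESN3 was the member with the largest difference, SESN2 was the only member at least 2-fold lower in PC3CR, and the other 5 lay within 2-fold. A difference of 1 on the log2 scale, which is 2-fold, was the threshold of the methods. Among the 7 members 1 was higher and 1 was lower by that much or more. Among all 19775 genes the corresponding shares were 9.84% and 6.72%. The median difference of the 7 members was 0.29, and that of all genes was -0.04. The signs were divided within each family: SESN1 and SESN3 were higher and SESN2 was lower in PC3CR, and FOXO1 and FOXO4 were higher and FOXO3 was lower.

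**Figure D1:**
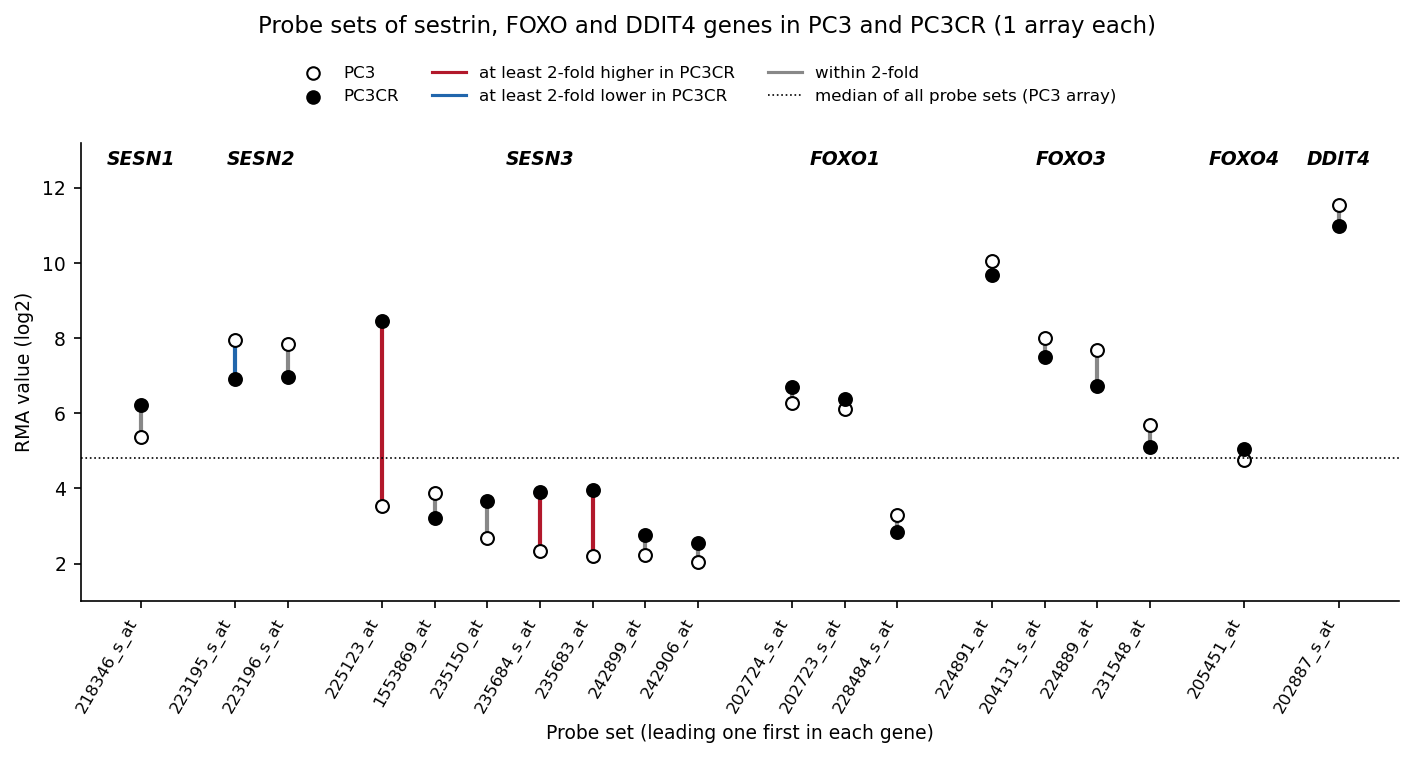
RMA values (log2, vertical axis) of all 19 probe sets of the 7 genes, 1 per position on the horizontal axis, in PC3 (open points) and PC3CR (filled points), with 1 array per cell line and no error bars. Line colour gives the 2-fold call, and the dotted line is the median of all probe sets of the PC3 array, 4.81; the leading SESN3 probe set is the only one of its gene above that line, at 8.45 in PC3CR.

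SESN3 encodes the sestrin that FOXO factors are known to induce. By its leading probe set, 225123_at, which had the highest mean over both arrays, SESN3 measured 3.53 in PC3 against 8.45 in PC3CR. The difference was 4.92, or 30.3-fold on the RMA scale, the second highest of all 19775 genes. The PC3 value lay just above the lower quartile of all probe sets of that array (3.42) and below its median, and the PC3CR value lay above the upper quartile of its array (6.96). After the 3 alternative scalings of the arrays the difference was between 4.86 and 4.93.

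The 7 probe sets of SESN3 disagreed. The 6 others lay between 2.03 and 3.87 in PC3 and between 2.55 and 3.96 in PC3CR, all below the array median of 4.81 on both arrays. Probe set 235683_at went from 2.21 in PC3 to 3.96 in PC3CR, which is 1.75 higher. Probe set 235684_s_at was at 2.32 and 3.90, which is 1.57 higher. These were the only other SESN3 probe sets past 2-fold, and in PC3 both lay below the lower quartile of that array (3.42).

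The remaining 4 SESN3 probe sets lay within 2-fold. Probe set 235150_at went from 2.68 in PC3 to 3.66 in PC3CR, or 0.98 higher, just short of the threshold. Probe sets 242899_at and 242906_at differed by 0.53 and 0.53, and reached only 2.75 and 2.55 in PC3CR, where the lower quartile of all probe sets was 3.35. The single probe set in the other direction, 1553869_at, read 3.87 in PC3 against 3.20 in PC3CR, differing by -0.66. It is the only one of the 7 that the annotation ties to a RefSeq transcript, whereas the leading one and the other 5 are tied to other GenBank entries. Thus 6 of 7 SESN3 probe sets were higher in PC3CR and 3 of 7 by at least 2-fold, and the estimate for the gene depended on which one was read. The mean over the 7 probe sets was 1.37 and the median 0.98. Without the leading probe set, the other 6 had a mean of 0.78 and a median of 0.76.

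This spread was large beside that of other genes. The highest and the lowest SESN3 probe set were 5.59 apart. Of the 171 genes with 7 probe sets SESN3 had the widest such range, against a median of 1.20. Of all 10523 genes with several probe sets, 8 including SESN3 had a range of at least that size. Opposite signs by themselves were common, since 77.8% of genes with 7 probe sets had at least 1 higher and 1 lower. The positions that each probe set covers in the transcripts of SESN3 were not examined.

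**Figure D2:**
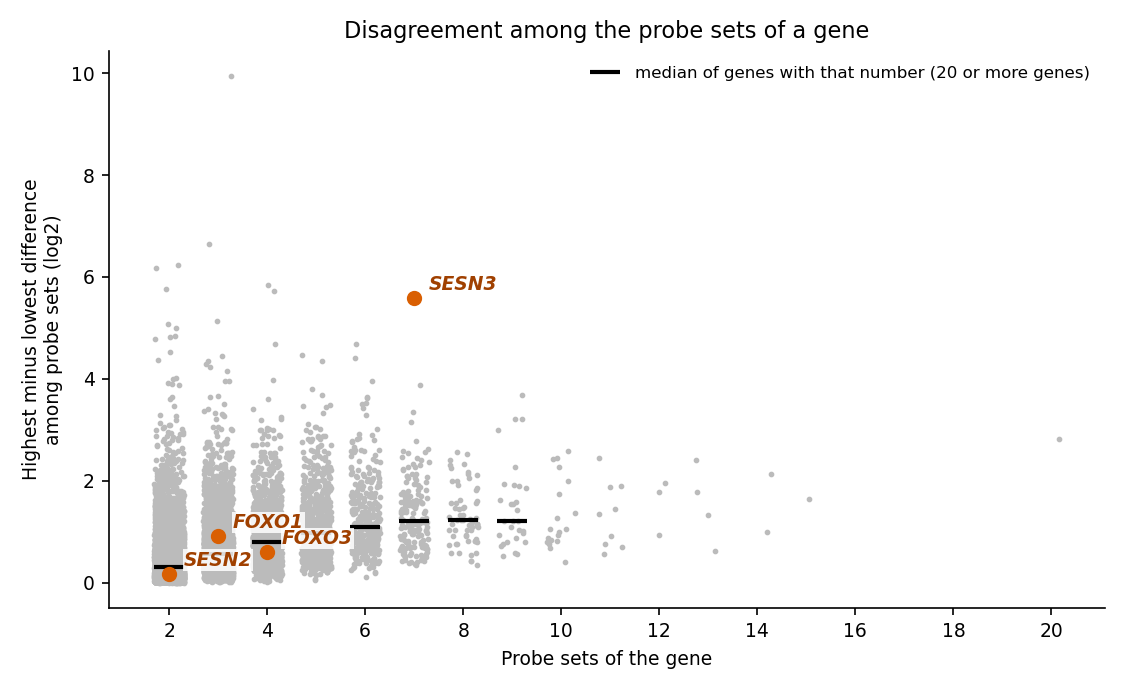
Disagreement among probe sets of a gene. The vertical axis is the highest minus the lowest PC3CR minus PC3 difference (log2) among the probe sets of a gene, the horizontal axis is their number (grey points shifted sideways at random for legibility), and black bars are medians. SESN3 lies at 5.59 with 7 probe sets, above all other genes with that number, while SESN2 and FOXO3 lie below the median of genes with as many probe sets and FOXO1 above it.

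SESN2 encodes the sestrin that senses leucine and is induced by ATF4. Its leading probe set, 223195_s_at, read 7.94 in PC3 against 6.90 in PC3CR. The second, 223196_s_at, was at 7.83 and 6.96. Both were lower in PC3CR, by -1.04 and -0.87, and only 0.17 apart, against a median range of 0.30 among 5015 genes with 2 probe sets. SESN2 was thus 2.06-fold lower by the leading probe set, close to the threshold, and within 2-fold by the other and by their mean (-0.96). With loess centring the leading probe set differed by -1.18 and with quantile normalization by -1.14. It was at least 2-fold lower under each of the 3 scalings.

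SESN1, the p53-responsive sestrin, was read by 1 probe set, 218346_s_at, at 5.37 in PC3 and 6.23 in PC3CR. The difference was 0.86, or 1.81-fold, the nearest to the threshold among the members within it. It ranged from 0.77 to 0.86 over the scalings. By leading probe sets the order of the sestrins from lowest to highest difference was SESN2, SESN1 and SESN3, with no replicate spread against which neighbours in this order could be compared. The place of SESN3 in it rests on 225123_at, since the other 6 SESN3 probe sets, with a mean of 0.78, lay on average below SESN1 at 0.86.

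The FOXO factors all lay within 2-fold in every one of their 8 probe sets. FOXO3, a FOXO factor of many tissues, read 10.05 in PC3 against 9.69 in PC3CR by its leading probe set, 224891_at, differing by -0.36. Its 3 other probe sets had larger differences. Probe set 224889_at read 7.68 in PC3 against 6.73 in PC3CR, differing by -0.95, and 231548_at and 204131_s_at differed by -0.58 and -0.51. FOXO3 was thus lower in PC3CR by 4 of 4 probe sets, with a mean of -0.60, while 56.3% of genes with 4 probe sets had both signs among them. A further 3 probe sets bind both FOXO3 and its close copy FOXO3B and were left out by the rule. They differed by -0.37, -0.22 and -0.05, so that none of the 7 probe sets that can bind FOXO3 RNA was higher in PC3CR.

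FOXO1, the FOXO factor of insulin signalling, had 3 probe sets that differed in sign. Probe set 202724_s_at, the leading one, read 6.26 in PC3 against 6.71 in PC3CR, which is 0.45 higher. Probe set 202723_s_at read 6.10 and 6.38, differing by 0.28, and 228484_s_at read 3.29 and 2.83, differing by -0.45. The 2 that lay above the array median were higher in PC3CR, and the one below it was lower. The mean over the 3 was 0.09. Of 2780 genes with 3 probe sets, 46.1% had both signs, and 26.8% had a range at least as wide as that of FOXO1, 0.90.

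FOXO4 was read by 1 probe set, 205451_at, at 4.76 in PC3 and 5.04 in PC3CR, on either side of the median of all probe sets (4.81). Among genes read by their leading probe set it lay below the median on both arrays, with 33.3% of genes below it in PC3 and 38.4% in PC3CR. The difference was 0.29, and 55.5% of all genes were at least as far from 0. By leading probe sets as deposited FOXO4 had the smallest difference of the members, but with loess centring FOXO1 (0.34) was below FOXO4 (0.36), as it was by the mean (0.092) and the median (0.28) of its probe sets. FOXO1, FOXO3 and FOXO4 together spanned from -0.36 to 0.45 by their leading probe sets.

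DDIT4, the stress-induced inhibitor of mTORC1, was lower in PC3CR within 2-fold. Its only probe set, 202887_s_at, read 11.54 in PC3 against 10.97 in PC3CR. The difference was -0.56, or 1.48-fold lower, and 32.6% of all genes were at least as far from 0. SESN2, FOXO3 and DDIT4 were the members lower in PC3CR, and SESN1, SESN3, FOXO1 and FOXO4 were the members higher in it.

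**Figure D3:**
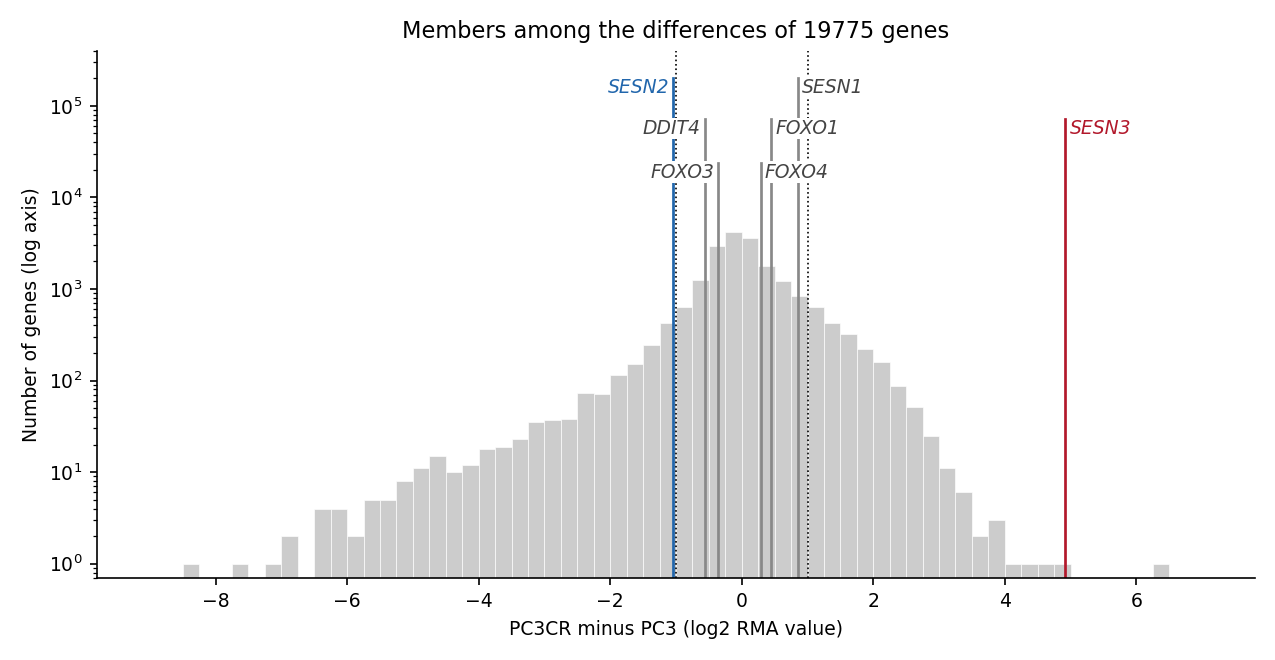
Histogram of PC3CR minus PC3 for 19775 genes (log2 RMA scale on the horizontal axis, number of genes on a log vertical axis), and the 7 members as vertical lines, whose height carries no value. Dotted lines mark 2-fold; SESN3 stands at 4.92 in the upper tail, SESN2 at -1.04 lies just outside the lower dotted line and the other 5 members lie between the dotted lines.

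By position, SESN1 and FOXO3 lie close together on chromosome 6, with ZPR1P1 and ARMC2 the only measured genes between them. SESN1 differed by 0.86 and FOXO3 by -0.36, with -0.38 and -0.37 for the genes between, so differences of both signs lay side by side in this stretch. SESN3 lies on chromosome 11, and of its 3 measured neighbours on either side ENDOD1, the adjacent gene, read 6.45 in PC3 against 8.66 in PC3CR, which is 2.21 higher. The other 5 neighbours of SESN3 lay within 2-fold, between -0.54 and 0.47. Around DDIT4 on chromosome 10, 5 of 6 neighbours were lower in PC3CR, none by 2-fold, with a median of -0.24. All 6 neighbours of FOXO1 on chromosome 13 were higher, between 0.04 and 0.79. The neighbours of SESN2 were divided, 3 higher and 3 lower, and SESN2 lay below all 6. In all, 1 of 38 neighbours passed 2-fold upwards and 0 passed it downwards, beside 9.84% and 6.72% of all genes, and copy number at these loci was not examined.

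**Figure D4:**
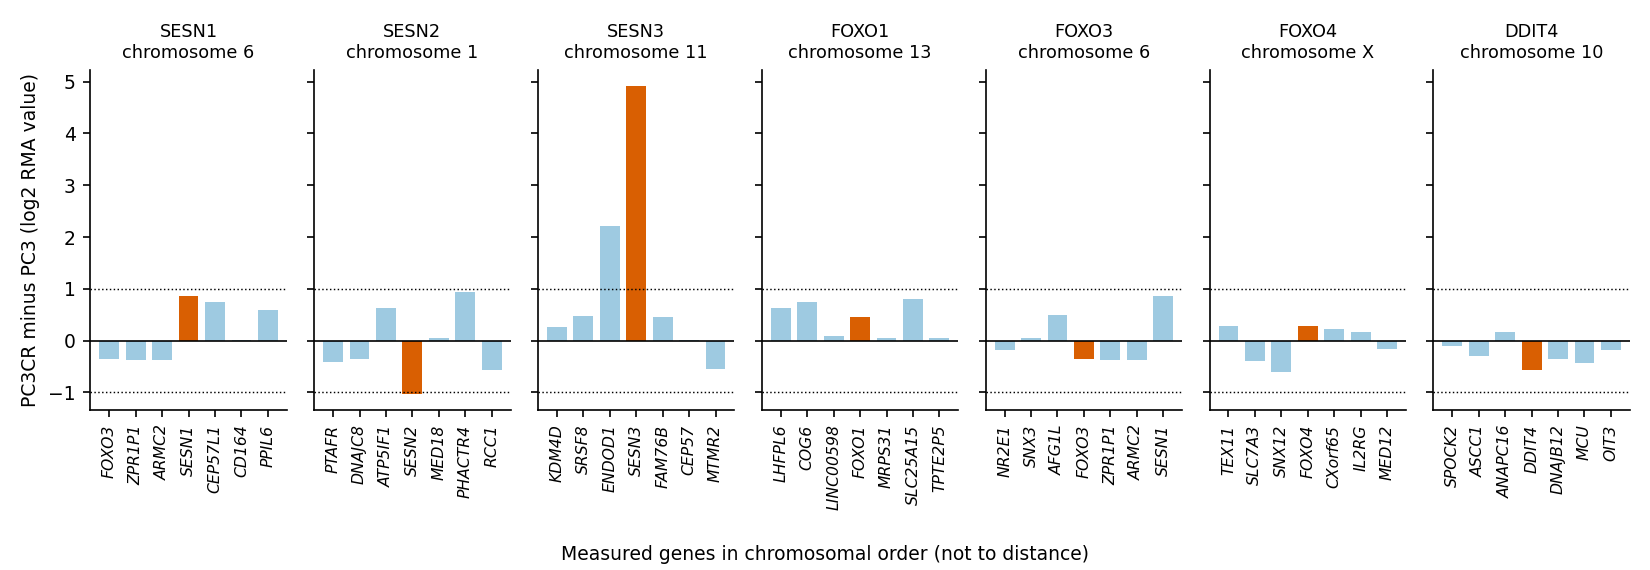
PC3CR minus PC3 (log2 RMA value, vertical axis) for each member (orange) and its 3 nearest measured genes on either side (blue), in chromosomal order and not to distance, 1 array per cell line. Dotted lines mark 2-fold; beside SESN3 at 4.92, ENDOD1 at 2.21 is the only neighbour past it.

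Other genes showed a low reading in PC3 and a high one in PC3CR as well. By Euclidean distance of the pair of log2 values over the 2 arrays, those nearest to SESN3 were CEMIP (3.84 and 8.34, distance 0.33), SLC40A1 (distance 0.59) and CTSLP8 (distance 0.78). This distance also depends on how strongly each probe set binds, so it is a description of signals and nothing is read from it.

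The genes on which the sestrins act included some higher and some lower in PC3CR, and each count below stands beside 9.84% of all genes at least 2-fold higher and 6.72% lower. Of 11 measured GATOR and KICSTOR genes, 1 was at least 2-fold higher and 1 lower (median 0.11, or -0.0027 with probe sets averaged), namely KICS2 at 1.09 and KPTN at -2.06, both subunits of KICSTOR. KICS2 fell short of 2-fold with loess centring (0.95) and with quantile normalization (0.98). Of mTORC1, the Rag GTPases and the TSC complex, 17 genes were measured, with 2 higher and 3 lower by 2-fold or more (median 0.24, or 0.053 with probe sets averaged). AKT1S1, the mTORC1 inhibitor PRAS40, differed by -1.82, DEPTOR, another inhibitor, by 1.58, the Ragulator subunit LAMTOR3 by -1.38 and the Rag GTPases RRAGA and RRAGC by 1.28 and -1.05. MTOR itself differed by 0.31, but by -0.14 on average over its 2 probe sets. Of 8 AMPK genes 1 passed 2-fold, PRKAA2, a catalytic subunit, at 2.02 (median of the list -0.10). Of 12 sestrin redox partners none was at least 2-fold higher and 3 were lower (median 0.01), the repressor of NRF2 KEAP1 at -3.77 and the peroxiredoxins PRDX2 and PRDX6 at -1.47 and -1.40.

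Genes upstream and downstream of the FOXO factors went both ways. Of 14 measured PI3K, AKT and SGK genes, 4 were at least 2-fold higher and 1 lower (median 0.38, or 0.19 with probe sets averaged). INPP4B, a phosphoinositide phosphatase that opposes AKT, read 7.05 in PC3 against 2.53 in PC3CR, differing by -4.53. Its 4 probe sets ranged from -4.53 to 0.16, with 1 higher, and averaged -1.99. PIK3R1, a regulatory subunit of PI3K, differed by 2.63 (1.58 averaged over its probe sets), PHLPP1 by 1.35, AKT2 by 1.28 and PIK3CB by 1.08, while AKT1 differed by 0.70. Of 15 FOXO regulators and cofactors, 1 was at least 2-fold higher, the ubiquitin ligase subunit SKP2 at 1.97, and 1 lower, the methyltransferase PRMT1 at -1.44, with a median of 0.51, or 0.28 with probe sets averaged and 0.39 with loess centring. The related factors FOXO6 and FOXM1 differed by 0.94 and 0.52. Of 36 FOXO target genes, 4 were at least 2-fold higher (11.1%) and 5 lower (13.9%), beside 9.84% and 6.72% of all genes, with a median of -0.13. TXNIP, an inhibitor of thioredoxin, read 8.28 in PC3 against 11.29 in PC3CR, which is 3.01 higher, whereas FBXO32, the ubiquitin ligase atrogin-1, differed by -2.55 (from -3.93 to -0.052 over 7 probe sets, all lower), GADD45A by -1.98 and the autophagy gene ATG14 by -1.84. ERBB3, RBL2 and the catalase gene CAT, the others past 2-fold upwards, differed by 1.28, 1.15 and 1.01, and the autophagy gene GABARAPL1 and the superoxide dismutase SOD2 by -1.33 and -1.32. The cell cycle inhibitors CDKN1B and CDKN1A differed by 0.87 and 0.71 and the proapoptotic gene BCL2L11 by -0.46.

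Factors that induce single members were taken next. Of 16 measured stress factors and markers that accompany SESN2 and DDIT4 induction, 2 were at least 2-fold higher and 1 lower (median -0.10, or -0.21 with probe sets averaged). These were the glucocorticoid receptor NR3C1 at 1.10 and its target FKBP5 at 1.09, and the ATF4 target TRIB3 at -1.24. ATF4 differed by 0.20 and HIF1A by -0.76. Of 17 genes of the p53 family and its targets, 2 were at least 2-fold higher, TP53INP1 at 1.78 and FAS by 2.64-fold, and 1 lower, GDF15 at -5.66, or -3.32 averaged over its probe sets (median of the list -0.12). Over the 9 lists together, 17 of 144 genes (11.8%) passed 2-fold upwards and 16 (11.1%) downwards, beside 9.84% and 6.72% of all genes. Of these 33 genes 27 had several probe sets, and for 13 of these the probe sets averaged to less than 2-fold, namely KICS2, DEPTOR, RRAGC, LAMTOR3, PRKAA2, PIK3CB, AKT2, PHLPP1, CAT, ERBB3, TP53INP1, NR3C1 and PRDX2.

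**Figure D5:**
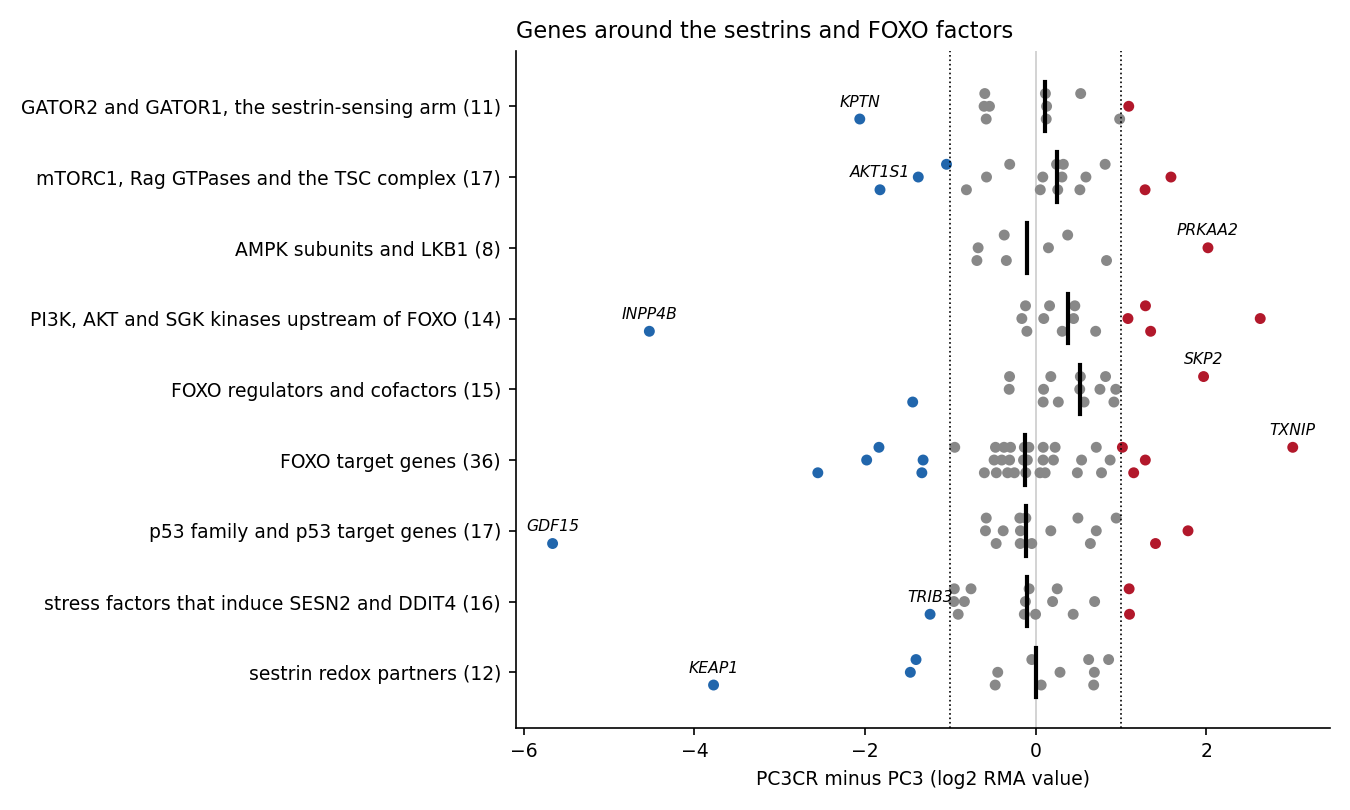
PC3CR minus PC3 (log2 RMA value, horizontal axis) for genes of 9 lists around the sestrins and FOXO factors, a point for each gene, the count of those measured standing in brackets. Red marks genes higher and blue genes lower in PC3CR by 2-fold or more, black bars are medians and dotted lines mark 2-fold; the gene furthest from 0 is named in each list, and each median lies between the dotted lines, from -0.13 to 0.51.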

How the data were processed

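The authors isolated total RNA from PC3 and PC3CR cells, hybridised it to 1 array each and deposited 1 log2 value per probe set, made with RMA. The submitters' processing notes list RMA, Transcriptome Analysis Console 3.1 and Affymetrix Expression Console 1.4. A Human Gene ST array is named in the methods, whereas the deposited identifiers belong to the U133 Plus 2.0 design, and the platform annotation given for it named the genes. RMA gives both arrays like distributions, so an overall difference in RNA amount would not be seen. The number of arrays limits the precision.

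Among 54613 probe sets, exactly 1 gene symbol was given for 41091, several for 1801 and none here for 11721. Symbols were updated by Entrez ID to RefSeq on GRCh38.p14 for 41037. Each gene was led by its probe set of highest mean, PC3CR minus PC3 was taken, and genes were counted at 1 or more and -1 or less without a minimum signal. There was no test and no p-value. The members and lists were chosen with earlier results of these data known. Of the partner genes, the text names up to 4 per list furthest from 0 past 2-fold, others needed to account for a count of 5 or fewer, and a set chosen by role, with the 3 measured neighbours on either side of each member and the 3 genes nearest to SESN3 in value. Some genes that this rule lists were not analysed here.

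Alternatives were the mean and the median of probe sets, probe sets of the _at kind, centring of the arrays by median or by loess (span 0.4), quantile normalization, thresholds of 1.5-fold and 3-fold and 2 floors on signal, and, chosen after seeing the data, the probe set of second highest mean. A value was taken as moved at a change of over 0.1 on the log2 scale, and a count at over 1.5 times. The procedure was tested on simulated data. All probe sets of a gene shared the same difference there, so that test does not bear on disagreement among probe sets. The software was Python 3.11.15 with matplotlib 3.10.9, statsmodels 0.14.6, pandas 2.3.3 and numpy 2.4.6.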

Additional observations from a re-analysis of the deposited data

How the results depend on the processing

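The scalings changed no direction among the 7 members and no count of members past 2-fold, and the median of all genes lay between -0.05 and 0.03 under the scalings, the probe set averages and the floors. With loess centring SESN2 differed by -1.18 and FOXO1 by 0.34, and with quantile normalization SESN2 differed by -1.14 and FOXO1 by 0.30. The choice of probe set mattered more. Averaged over probe sets, SESN3 differed by 1.37, FOXO1 by 0.092 and FOXO3 by -0.60. By that average 1 member was at least 2-fold higher and 0 were lower, beside 1369 and 1074 of all 19775 genes. With the median SESN3 differed by 0.98, FOXO1 by 0.28 and FOXO3 by -0.55. By that median 0 members were past 2-fold in either direction, beside 1425 of all 19775 genes higher and 1076 lower. With the probe set of the second highest mean, an alternative chosen after seeing the data, SESN3 reversed to -0.66, and SESN2, FOXO1 and FOXO3 differed by -0.87, 0.28 and -0.51. With only probe sets of the _at kind SESN3 and FOXO3 kept their leading probe set and FOXO4 its single one, while SESN1, SESN2, FOXO1 and DDIT4 have none of that kind. At 1.5-fold 2 members were higher, and 3550 of all genes were higher and 2676 lower. At 3-fold 0 members were lower, and 756 of all genes were higher and 613 lower. The floors on signal asked only that the higher of the 2 values of a gene reach the lower quartile or the median of all probe sets of its array. All 7 members met both. SESN3 and FOXO4 met the median floor by their PC3CR values alone, as they read 3.53 and 4.76 in PC3, below the median there. The floors thus do not bear on the signal of these genes in PC3. Among the lists, 39 of 162 counts and 14 of 63 medians moved. With probe sets averaged the median of the FOXO regulators was 0.28, that of the PI3K, AKT and SGK genes 0.19 and that of the GATOR genes -0.0027, and the cause was not tested. No paired analysis was possible because each cell line has 1 array.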
